A study of Mus musculus with 23 samples.

Results

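The 9 genes for laminins and the integrins that hold epithelial cells to them (Lama3, Lama5, Lamb1, Lamb2, Lamb3, Lamc1, Itga3, Itga6 and Itgb4) were followed in the colonic epithelium of mice on 3 diets. Each gene was taken as the row of the count file that carries its symbol, and all 9 members were found among 24917 loci. RNA depleted of ribosomal RNA was sequenced from 23 samples of colonic epithelium of male C57BL/6 mice (C57BL/6J in the methods), which were placed on their diets at 6 weeks of age. Control (LF) mice received a diet with 10% of calories from fat for 43 weeks, obese (HF) mice a diet with 60% for 43 weeks, and formerly obese (HF-LF) mice the 60% diet for 15 weeks and then the 10% diet for 28 weeks. The labels divide the samples into batch 1, with LF n = 4, HF n = 3 and HF-LF n = 4, and batch 2, with LF n = 4, HF n = 3 and HF-LF n = 5. Total gene counts ran from 29189922 to 46498521 in the libraries of batch 1 and from 31607019 to 65320947 in those of batch 2. The epithelium was released from the colon with EDTA, so the tissue below it was meant to be left behind. No label says whether same-numbered samples of the batches come from the same mouse, and across batches the deviations of samples of the same diet and number from their group means correlated at -0.327 to 0.229, with 3 of 11 pairs above 0.1. P-values measure the spread between these samples. The fit over both batches treats 8 LF, 6 HF and 9 HF-LF samples as separate mice. The methods of the study give fewer mice per diet than that, so some samples may share a mouse and p-values over both batches may then be too small.

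Laminins are trimers of an alpha, a beta and a gamma chain that assemble into the sheet of the basement membrane under the epithelium. The alpha 3 laminin, which holds the chains of Lama3 and Lamb3, is the ligand of hemidesmosomes, while in the alpha 5 laminins the chain of Lama5 joins the beta 1 (Lamb1) or beta 2 (Lamb2) chain and the gamma 1 chain of Lamc1. On the epithelial side, integrin alpha 6 beta 4 (Itga6 and Itgb4) binds laminin and is tied to keratin filaments through plectin, and integrin alpha 3 (Itga3) pairs with beta 1. In the intestine the basement membrane is laid down by both the epithelium and the mesenchyme, and its laminin chains differ between the crypt and the surface.

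Levels are given as TMM-scaled CPM, the count of a gene relative to the library size after scaling with the TMM method of edgeR. Tests are the quasi-likelihood F test of edgeR on all genes that passed a filter, with p-values adjusted over them (Benjamini-Hochberg), and "rose", "fell" and "passed" mean an adjusted p below 0.05 together with more than a 1.2-fold difference. By level per kilobase of exon in LF mice of batch 1, Itga6 came first at 99.5 ± 4.52 CPM per kb (SD, n = 4), followed by Lamb3 at 81.9 ± 19.3, Itgb4 at 69.0 ± 10.2 and Itga3 at 46.8 ± 3.81. Lama3 stood at 16.1 ± 1.98 CPM per kb. The chains of the alpha 5 laminins were much lower, with Lamb2 at 4.53 ± 1.06 CPM per kb, Lama5 at 2.78 ± 1.19, Lamc1 at 1.71 ± 0.330 and Lamb1 at 0.498 ± 0.309. Thus the chains of the alpha 3 laminin and the integrins were above those of the alpha 5 laminins in this material. The ranges of the 4 LF samples overlapped for Itga6 and Lamb3, for Lamb3 and Itgb4, for Lamb2 and Lama5 and for Lama5 and Lamc1. The place of Itga6 rests on the annotation, since with the exons of all annotated transcripts it stood at 48.1 CPM per kb, below Lamb3 at 63.5 and Itgb4 at 62.8.

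**Figure D1:**
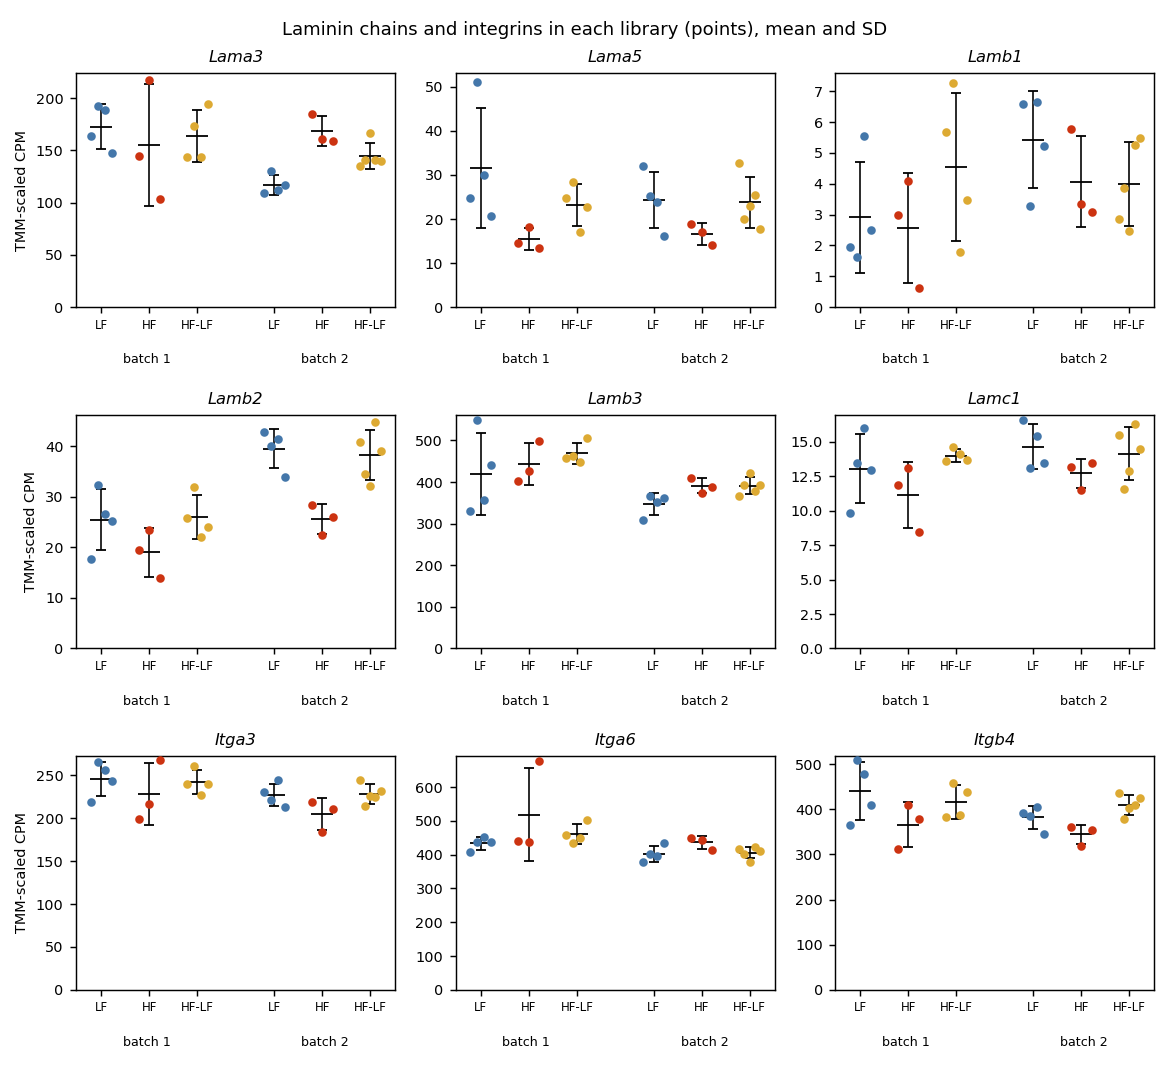
TMM-scaled CPM (y axis, from 0) of the 9 genes in each of the 23 libraries, by diet and batch, with the mean and SD of each group in black. In batch 2 the HF samples of Lamb2 lie between 22.5 and 28.4 CPM, below all LF and HF-LF samples, and those of Lama3 between 159 and 185 CPM, above all LF samples.

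In obese mice Lama5 and Lamb2 fell over both batches, and Lama3 rose in batch 2. The gene for the alpha 5 chain, Lama5 (Entrez 16776, chr2:180176373-180225859 of mm10, minus strand), measured 24.8, 51.2, 29.9 and 20.6 CPM in the LF samples of batch 1. In the HF samples of that batch it measured 14.5, 18.2 and 13.5 CPM, and in the HF-LF samples 24.7, 28.3, 17.0 and 22.7 CPM. All HF samples were below all LF samples of batch 1, and 1 HF-LF sample fell among the HF samples. In batch 2 the LF samples held 32.0, 25.2, 23.8 and 16.2 CPM, the HF samples 18.8, 17.1 and 13.99 CPM, and the HF-LF samples 32.8, 20.03, 23.02, 25.3 and 17.8 CPM. Here the groups overlapped, since the lowest LF sample lay among the HF samples.

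The log2 fold change of Lama5 between HF and LF mice was -1.04 (SE 0.27, 95% interval -1.62 to -0.46) in batch 1, with an adjusted p of 0.146. Batch 2 gave -0.55 (SE 0.21, adjusted p = 0.0962). With both batches in 1 fit and batch as a covariate, Lama5 fell by 42.2% (log2 fold change -0.79, SE 0.19, adjusted p = 0.00709). Between HF-LF and HF mice it rose by 47.6% in that fit (log2 fold change 0.56, SE 0.18, adjusted p = 0.039), and between HF-LF and LF mice the difference was -0.23 (95% interval -0.57 to 0.11). The fall held when same-numbered samples of the batches were summed into 1 (-0.76, adjusted p = 0.0117), and the rise did not pass then (0.52, adjusted p = 0.0581). The rise of Lama5 also did not pass without 1 of 9 samples, namely HF replicates 1 and 3 or HF-LF replicates 2 and 4 of batch 1 and HF replicates 2 and 3 or HF-LF replicates 1, 3 and 4 of batch 2, with adjusted p from 0.0532 to 0.104. Within a batch the fall passed without HF replicate 2 of batch 1 (-1.17, adjusted p = 0.0426) and without LF replicate 4 of batch 2 (-0.70, adjusted p = 0.0227).

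Lama3 (Entrez 16774), which encodes the alpha 3 chain, went the other way in batch 2. Its LF samples there measured 109, 131, 112 and 117 CPM, its HF samples 185, 161 and 159 CPM, and its HF-LF samples 135, 141, 167, 141 and 140.3 CPM. Neither the HF nor the HF-LF samples overlapped with the LF samples. In batch 2 Lama3 rose by 43.9% from LF to HF mice (0.52 on the log2 scale, SE 0.08, adjusted p = 0.0106). HF-LF mice stood between the other groups, with 0.31 (95% interval 0.15 to 0.46, adjusted p = 0.674) against LF mice and -0.22 (95% interval -0.39 to -0.05, adjusted p = 0.0643) against HF mice.

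In batch 1 the same gene measured 163, 192, 188 and 147 CPM in LF mice, 145, 218 and 103 CPM in HF mice and 144, 173, 144 and 195 CPM in HF-LF mice. The HF samples of batch 1 spanned the whole range of the other samples, and the log2 fold change of Lama3 was -0.16 (SE 0.20, adjusted p = 0.653). The difference between the batches in this fold change was 0.68 (SE 0.23, unadjusted p = 0.00796), which did not pass over all genes in edgeR (adjusted p = 0.694). The HF sample with 103 CPM, replicate 3 of batch 1, correlated with its group mates at a mean of 0.978, the lowest of the 23 libraries. Without it the log2 fold change of Lama3 in batch 1 was 0.07, and over both batches it was 0.33 and passed (adjusted p = 0.0387), against 0.19 (adjusted p = 0.276) with all samples.

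The ratio of both alpha chains within each sample, which does not depend on the scaling of libraries, was computed after these values were seen and was not tested. Per kilobase, Lama3 stood 6.31 ± 1.59 times above Lama5 (SD, n = 4) in LF mice of batch 1, 10.4 ± 2.28 times (n = 3) in HF mice and 7.68 ± 1.57 times (n = 4) in HF-LF mice. Batch 2 gave 5.43 ± 1.67 (n = 4), 10.8 ± 1.10 (n = 3) and 6.74 ± 1.61 (n = 5). In batch 1 the ratio ran from 8.11 to 12.7 in HF mice and from 3.98 to 7.58 in LF mice, and it reached 9.08 in HF-LF mice, where 2 samples lay above the lowest HF sample. In batch 2 the HF samples, from 9.98 to 12.1, lay above every LF sample, at most 7.63, and every HF-LF sample, at most 8.35.

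Among the beta chains, Lamb2 (Entrez 16779, chr9:108479862-108490530, plus strand) was lower in HF mice. Its beta 2 chain takes the place of beta 1 in one of the alpha 5 laminins. The LF samples of batch 2 measured 42.8, 40.01, 41.4 and 33.9 CPM, the HF samples 28.4, 22.5 and 26.02 CPM, and the HF-LF samples 40.7, 34.5, 32.2, 44.7 and 39.1 CPM. All HF samples of batch 2 lay below all others, while the LF and HF-LF samples overlapped. In batch 1, with 17.8, 32.3, 26.6 and 25.3 CPM in LF mice, 19.5, 23.5 and 13.97 CPM in HF mice and 25.8, 32.0, 22.1 and 23.98 CPM in HF-LF mice, the groups overlapped.

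In batch 2 Lamb2 fell by 35.0% from LF to HF mice (-0.62 on the log2 scale, SE 0.11, adjusted p = 0.0175) and rose by 48.9% from HF to HF-LF mice (0.57, SE 0.11, adjusted p = 0.0131). Against LF mice the HF-LF mice differed by -0.05 (95% interval -0.26 to 0.16). Batch 1 gave -0.42 (SE 0.21, adjusted p = 0.241) between HF and LF mice and 0.45 (SE 0.21, adjusted p = 0.456) between HF-LF and HF mice. Over both batches Lamb2 fell by 30.3% (log2 fold change -0.52, SE 0.12, adjusted p = 0.0064) and rose by 43.1% from HF to HF-LF mice (0.52, SE 0.12, adjusted p = 0.0133). The call in batch 2 rests on few samples: without LF replicate 1, LF replicate 3, HF replicate 2 or HF replicate 3 the adjusted p of the fall was 0.0593, 0.0577, 0.101 and 0.0649, and without HF replicate 2 that of the rise was 0.095.

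The 250 bases before the annotated starts of these 2 genes are shown because Lama5 and Lamb2 are the members that passed in both directions over both batches. They come from RefSeq (GRCm38.p6, the mm10 build), are written 5′ to 3′ on the strand of the gene, and stand at chr2:180225860-180226109 (minus strand) and chr9:108479612-108479861 (plus strand). Capitals mark the GC box GGGCGG, the motif of Sp factors, read on either strand.
Lama5: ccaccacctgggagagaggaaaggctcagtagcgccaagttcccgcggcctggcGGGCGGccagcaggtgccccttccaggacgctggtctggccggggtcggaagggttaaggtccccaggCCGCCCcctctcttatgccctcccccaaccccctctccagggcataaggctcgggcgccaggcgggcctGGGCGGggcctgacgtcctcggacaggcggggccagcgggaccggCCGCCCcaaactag
Lamb2: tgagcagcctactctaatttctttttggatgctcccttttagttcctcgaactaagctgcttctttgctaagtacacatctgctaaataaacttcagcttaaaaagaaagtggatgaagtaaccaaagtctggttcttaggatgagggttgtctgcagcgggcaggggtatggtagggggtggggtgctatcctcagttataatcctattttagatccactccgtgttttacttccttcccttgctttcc
The stretch of Lama5 holds 4 GC boxes and has 72.4% GC, and that of Lamb2 holds 0 and has 43.6% GC. Of 32851 promoters of this length in the same table, 32.7% hold at least 1 GC box, and their median GC content is 52.4%. The AP-1 motif TGANTCA, the site of Fos and Jun proteins, was searched on both strands as well, and none of the 7 promoter entries of the 5 matched members (Lama5, Lamb1, Lamb2, Lamb3 and Itga3) holds it in these 250 bases, against 6.75% of all promoters. At such a share, so few entries would often hold none, so this count does not set the members apart.

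Lamb3 (Entrez 16780, chr1:193301994-193343878, plus strand), the beta 3 chain, was not called in any comparison. In batch 2 its LF samples measured 309, 368, 351 and 361 CPM and its HF samples 410.4, 374 and 389 CPM. Its HF-LF samples measured 368, 394, 422, 379 and 393 CPM. The HF and the HF-LF samples lay above the LF samples, but the lowest HF-LF and the highest LF sample met at 368 CPM. Its log2 fold change was 0.17 (SE 0.07, adjusted p = 0.117) for HF and 0.17 (SE 0.06, adjusted p = 1.00) for HF-LF against LF mice. In batch 1 Lamb3 ran from 329.9 to 550.1 CPM in LF mice and from 403 to 499.6 CPM in HF mice, with a log2 fold change of 0.08 (SE 0.15, adjusted p = 0.771).

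Lamb1 (Entrez 16777, chr12:31265294-31329639, plus strand), the beta 1 chain, was the lowest member per kilobase and had the widest intervals. It ran from 0.608 to 7.25 CPM over batch 1 and from 2.47 to 6.65 CPM over batch 2. The log2 fold changes between HF and LF mice, -0.20 (95% interval -1.48 to 1.09) and -0.42 (95% interval -1.06 to 0.23), are wide, and neither passed. Lamc1 (Entrez 226519, chr1:153218922-153332786, minus strand), the gamma 1 chain, measured 9.84, 13.5, 16.0 and 13.0 CPM in LF mice of batch 1, 11.9, 13.1 and 8.45 CPM in HF mice and 13.6, 14.6, 14.1 and 13.7 CPM in HF-LF mice. Its HF-LF samples lay above all HF samples there. The log2 fold changes of Lamc1 between HF and LF mice were -0.23 (SE 0.17, adjusted p = 0.407) in batch 1 and -0.20 (SE 0.12, adjusted p = 0.246) in batch 2.

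None of the integrin genes passed in edgeR in any comparison with all samples. Itgb4 (Entrez 192897, chr11:115974725-116008411, plus strand), whose long cytoplasmic tail binds plectin, measured 391, 386, 406 and 346 CPM in LF mice of batch 2, 359.9, 319.5 and 354 CPM in HF mice and 436, 378, 402, 411 and 424 CPM in HF-LF mice. All HF-LF samples were above all HF samples, and 1 LF sample fell among the HF samples. The difference between HF-LF and HF mice was 0.25 (SE 0.07, adjusted p = 0.0282), a fold of 1.19, below the 1.2-fold limit, and it passed that limit without HF-LF replicate 2 (0.27, adjusted p = 0.0186) or HF replicate 1 (0.28, adjusted p = 0.0392). Over both batches Itgb4 was 0.21 lower on the log2 scale in HF than in LF mice (log2 fold change -0.21, SE 0.07, adjusted p = 0.0386), again under the fold threshold. In batch 1, with 366, 508, 479 and 409 CPM in LF mice, 312, 409 and 378 CPM in HF mice and 384, 458, 387 and 438 CPM in HF-LF mice, the groups overlapped (-0.27, SE 0.13, adjusted p = 0.249). Itgb4 overlaps Galk1 on the other strand by 55 bases, where reads of the 2 genes cannot be told apart if the counting ignored strand (not given in the sources used here), and Galk1 averaged 18.8 CPM.

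Itga6 (Entrez 16403, chr2:71786939-71858427, plus strand), the partner of Itgb4, did not follow it. It measured 377, 401, 396 and 434 CPM in LF mice of batch 2, 450.4, 444 and 415 CPM in HF mice and 416, 401, 379, 424 and 412 CPM in HF-LF mice. The groups overlapped, and the log2 fold change between HF and LF mice was 0.12 (SE 0.07, adjusted p = 0.218). In batch 1 it was 0.26 (SE 0.14, adjusted p = 0.277), with 440.0, 438 and 677 CPM in HF mice, of which the last is the library that stood apart. The LF samples of that batch measured 407, 436, 454 and 438 CPM and the HF-LF samples 457, 436, 450.2 and 504 CPM. Without that library the log2 fold change of Itga6 in batch 1 was 0.02.

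Itga3 (Entrez 16400, chr11:95044482-95076714, minus strand), the laminin-binding alpha chain that pairs with beta 1, ran from 184 to 268 CPM over all 23 samples. Its log2 fold changes between HF and LF mice were -0.11 (SE 0.11, adjusted p = 0.555) in batch 1 and -0.15 (SE 0.07, adjusted p = 0.165) in batch 2. Between HF-LF and LF mice it differed by -0.02 (95% interval -0.24 to 0.20) and 0.01 (95% interval -0.13 to 0.14), so a change above 1.2-fold lay outside the interval in both batches.

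**Figure D2:**
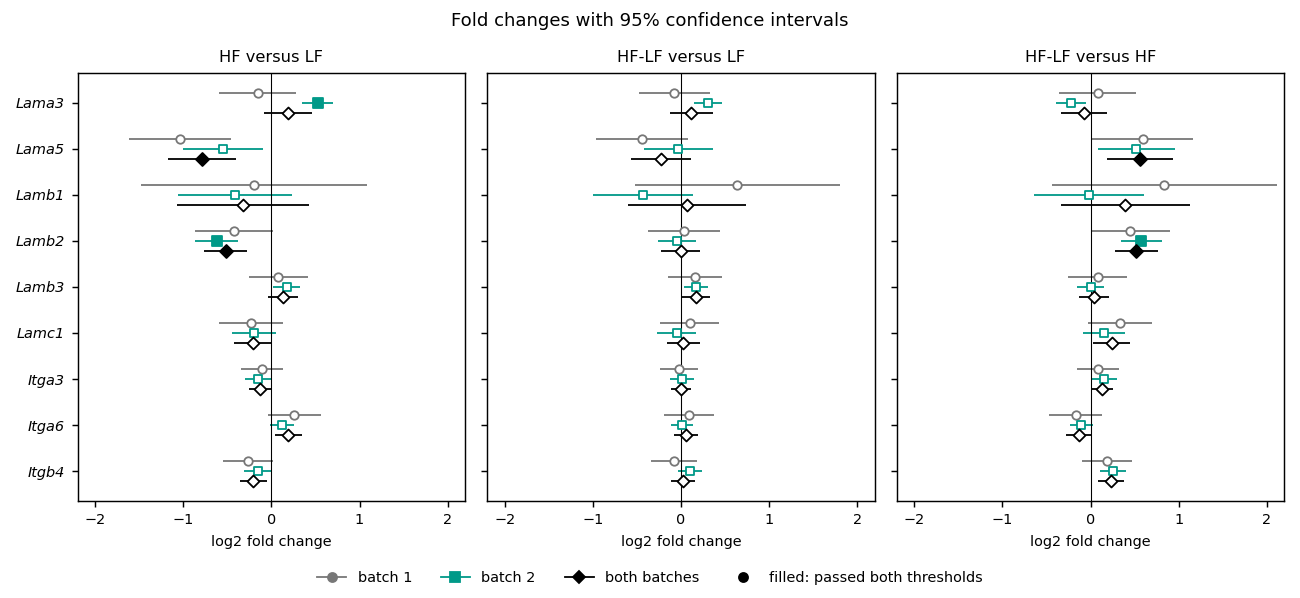
Log2 fold change (x axis) of the 9 genes in the 3 comparisons, with 95% confidence intervals, for batch 1, batch 2 and both batches with batch as a covariate. Filled symbols passed the adjusted p and the fold threshold, namely Lama3 and Lamb2 in batch 2 and Lama5 and Lamb2 over both batches between HF and LF mice, and Lamb2 and Lama5 between HF-LF and HF mice.

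Counted over the 9 genes, 0 passed between HF and LF mice in batch 1, where 0% of 14428 tested genes passed in edgeR although 3198 had an unadjusted p under 0.05 and DESeq2 called 512. Of the members, 1 (Lama5) had an unadjusted p under 0.05 there, against 22.2% of all genes, and DESeq2 called 1. In batch 2, 1 member rose, against 3.03% of 14377 genes, and 1 fell, against 4.4% (7.44% in either direction). Over both batches 2 of 9 members fell, against 9.11% of 14385 genes that fell, and 0 rose, against 9% (18.1% in either direction, near the share of the members). Between HF-LF and HF mice 1 of 9 rose in batch 2, against 8.89% of all genes (5.61% fell, 14.5% in either direction), and 2 of 9 over both batches, against 5.44% (4.9% fell, 10.3% in either direction). In batch 1, 0 of 9 passed in edgeR there, against 0.00693% of all genes, and 2 had an unadjusted p under 0.05, against 10.9%. Between HF-LF and LF mice 0 members passed in batch 1 (0% of all genes), batch 2 (0.00696%) or both (0%). At an unadjusted p under 0.05, 0, 2 and 1 of the 9 members differed in these fits of edgeR, against 5.29%, 4.65% and 4.11% of all genes.

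HF and LF samples did not overlap for 1 of 9 members in batch 1 (Lama5), against 13.6% of all genes, and for 3 of 9 in batch 2 (Lama3, Lamb2 and Lamb3), against 27.3%. For HF-LF against HF mice the counts were 1 of 9 (Lamc1) against 8.02% and 2 of 9 (Lamb2 and Itgb4) against 27.0%. For HF-LF against LF mice they were 0 of 9 against 2.41% and 2 of 9 (Lama3 and Lamb3) against 1.29%. The 3 comparisons of a batch share samples. The median log2 fold change of the members between HF and LF mice was -0.20 in batch 1 and -0.15 in batch 2, beside -0.00 and -0.01 over all tested genes.

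A few other genes of the basement membrane fell in HF mice. Of 14 tested genes of the list (16 in all), 3 fell in HF mice of batch 2, against 4.4% of all genes, namely Nid2, Ntn4 and Hspg2, and 3 over both batches, against 9.11%, namely Nid2, Ntn4 and Agrn (the last named after its values were seen). Nidogen 2, which links laminin to collagen IV, measured 17.5, 17.1, 16.6 and 14.6 CPM in LF mice of batch 2, 13.1, 11.5 and 12.5 CPM in HF mice and 20.4, 17.6, 16.5, 17.5 and 15.6 CPM in HF-LF mice. The HF samples of Nid2 lay below all others, and the log2 fold change was -0.40 (SE 0.10, adjusted p = 0.0334) in batch 2 and -0.48 (SE 0.08, adjusted p = 0.00217) over both batches. Netrin 4, which binds laminin, changed by -0.44 (SE 0.10, adjusted p = 0.00563) over both batches. Perlecan, Hspg2, changed by -0.61 (SE 0.17, adjusted p = 0.0438) in batch 2 and by -0.40 (adjusted p = 0.0874) over both. From HF to HF-LF mice 2 of 14 rose over both batches, against 5.44% of all genes, Nid2 by 0.45 (SE 0.08, adjusted p = 0.00596) and Ntn4 by 0.46 (SE 0.10, adjusted p = 0.00949).

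Among 11 other laminin receptors, 1 fell over both batches, a share near the 9.11% of all genes. Bcam, the Lutheran glycoprotein, which binds the alpha 5 chain encoded by Lama5, fell in HF mice, by 0.53 on the log2 scale in batch 2 (-0.53, SE 0.10, adjusted p = 0.0173) and by 0.51 over both batches (SE 0.11, adjusted p = 0.00528). Its samples of batch 2 measured 11.6, 9.34, 10.2 and 9.84 CPM in LF mice, 7.67, 6.84 and 6.80 CPM in HF mice and 10.3, 9.92, 9.41, 9.82 and 8.77 CPM in HF-LF mice. It rose again in HF-LF mice, by 0.38 over both batches (SE 0.11, adjusted p = 0.0222).

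On the keratin side of the hemidesmosome, 1 of 9 tested genes fell over both batches in HF mice, near the 9.11% of all genes, the plakin Dst, which encodes the hemidesmosome protein BP230 among other forms (-0.27, SE 0.10, adjusted p = 0.0473). From HF to HF-LF mice of batch 2, where 2 of 9 rose against 8.89% of all genes, Dst rose by 0.46 (SE 0.10, adjusted p = 0.015) and plectin, Plec, by 0.31 (SE 0.10, adjusted p = 0.0422). In the list of focal adhesion and integrin signalling, 4 of 19 genes fell and 1 rose over both batches between HF and LF mice, against 9.11% and 9% of all genes. Zyx, a zyxin of focal adhesions, gave -0.57 (SE 0.11, adjusted p = 0.00383), Tns4, a tensin, -0.42 (SE 0.09, adjusted p = 0.00522) and Tln2, a talin, -0.30 (SE 0.11, adjusted p = 0.0376). Of the 9 tested genes for enzymes that process laminin and for inhibitors of such enzymes (11 in all), 0 passed in edgeR in any comparison. Between HF and LF mice over both batches, 1 of them had an unadjusted p under 0.05, against 42.1% of all genes.

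**Figure D3:**
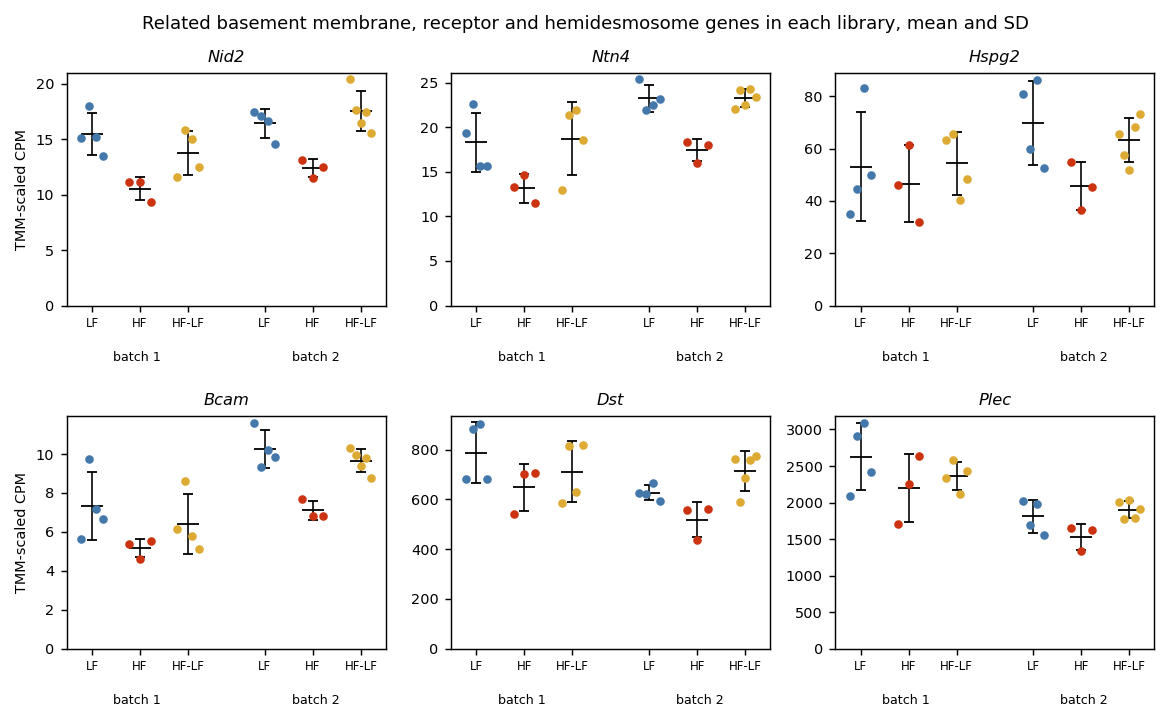
TMM-scaled CPM (y axis, from 0) of Nid2, Ntn4, Hspg2, Bcam, Dst and Plec in each library by diet and batch, with mean and SD. In batch 2 the HF samples of Nid2 (11.5 to 13.1 CPM), Ntn4 (16.0 to 18.3 CPM) and Bcam (6.80 to 7.67 CPM) lie below all LF and HF-LF samples.

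Genes of the immediate early response, which many cells switch on soon after a stimulus, moved with the same comparison. Of 17 listed, 14 fell between HF and LF mice over both batches (9.11% of all genes) and 9 in batch 2 (4.4%), and 10 rose from HF to HF-LF mice over both batches (5.44%). Klf2 gave -1.39 (SE 0.16, adjusted p = 2.93e-05), Egr3 -1.17 (SE 0.30, adjusted p = 0.00911) and Fosb -1.12 (SE 0.20, adjusted p = 0.00194) over both batches. In batch 1, where 0 of 17 passed in edgeR and 14 were lower at an unadjusted p under 0.05 (22.2% of all genes in either direction), the median of the list was -0.76. Their part in the changes of laminin genes was not tested.

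Markers of the epithelium were abundant, with 8 of 8 listed markers tested and Epcam, a surface protein of epithelial cells, at a mean of 1816 CPM. Summed over the list, epithelial markers took from 9836 to 13210 CPM in the 23 samples. The 6 smooth muscle markers summed to between 0.541 and 50.2 CPM and 6 fibroblast markers to between 2.88 and 51.6 CPM, with Myh11 and Col3a1 the most abundant at means of 5.32 and 9.23 CPM. Cnn1 was listed at 0 in 3 samples and Actg2 in 1. In batch 2 the summed smooth muscle markers were 19.9, 7.40, 31.0 and 5.86 CPM in LF mice, 4.68, 0.858 and 3.26 CPM in HF mice and 15.3, 1.84, 2.15, 11.2 and 6.09 CPM in HF-LF mice. All HF samples of batch 2 were below all LF samples for these markers. In batch 1 they were 1.16, 3.47, 9.33 and 11.2 CPM in LF mice, 10.1, 9.51 and 0.541 CPM in HF mice and 24.2, 50.2, 2.51 and 19.3 CPM in HF-LF mice. There the groups overlapped, and 4 of the 6 markers had a fold change above 0 between HF and LF mice (median log2 fold change 0.16). In batch 2, 0 of 6 smooth muscle markers (median -2.40) and 0 of 6 fibroblast markers (median -1.10) were above 0, and over both batches the medians were -1.37 and -0.68. From HF to HF-LF mice, 6 of 6 smooth muscle markers were above 0 in batch 1, batch 2 and both (medians 1.90, 1.06 and 1.58), and the fibroblast medians were 1.23, 0.33 and 0.77. None of 54 exact permutation tests of marker sums (two-sided, 9 lists, 3 comparisons, 2 batches) passed, 3 having an unadjusted p under 0.05 and the smallest adjusted p being 0.482. With 3 against 4 samples such a test cannot give an unadjusted p below 0.0571. The limit is 0.0357 with 3 against 5, 0.0286 with 4 against 4 and 0.0159 with 4 against 5. After adjustment over 54 tests a fully separated list cannot pass on its own, so these tests do not show equal marker levels. In such bulk samples, fewer cells of a type and less RNA per cell cannot be told apart.

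Several of the 9 genes, laminin chains and an integrin, followed these traces of mesenchyme within a batch. Of 36 relations (9 genes, 2 marker lists, 2 batches), 8 had adjusted permutation p under 0.05 by both Pearson's r and Spearman's rho, 2 in batch 1 and 6 in batch 2, and 13 by Pearson's r. The share of all tested genes with such relations is not given here, so these counts do not show that the members stand apart. Lamb1 and the fibroblast markers gave Pearson's r = 0.956 (permutation p = 2e-05, adjusted p = 0.00072) and Spearman's rho = 0.918 (permutation p = 0.00023, adjusted p = 0.00684) in the 11 samples of batch 1, and r = 0.889 without the 2 samples farthest from the median. In batch 2 this relation of Lamb1 was weaker, with r = 0.515 (permutation p = 0.087, adjusted p = 0.13) and rho = 0.49 (permutation p = 0.11, adjusted p = 0.21). Lamc1 and the smooth muscle markers in the 12 samples of batch 2 gave r = 0.897 (permutation p = 0.00013, adjusted p = 0.00156) and rho = 0.874 (permutation p = 0.00042, adjusted p = 0.00684), and r = 0.895 without the 2 farthest samples. In batch 1 Lamc1 gave r = 0.749 (permutation p = 0.0079, adjusted p = 0.0316) and rho = 0.455 (permutation p = 0.16, adjusted p = 0.257), but r = 0.101 without the 2 farthest, on which it rests. Itga3 gave r = 0.826 (permutation p = 0.00066, adjusted p = 0.00594) and rho = 0.762 (permutation p = 0.0056, adjusted p = 0.0254) with the smooth muscle markers of batch 2, and r = 0.626 without the 2 farthest, against r = -0.0376 (permutation p = 0.91, adjusted p = 0.912) and rho = -0.0727 (permutation p = 0.84, adjusted p = 0.89) in batch 1. In batch 2 Lamb2 gave r = 0.814 (permutation p = 0.0011, adjusted p = 0.00746) and rho = 0.86 (permutation p = 0.00057, adjusted p = 0.00684) with these markers, and r = 0.709 without the 2 farthest. In batch 1 Lamb2 gave r = 0.721 (permutation p = 0.012, adjusted p = 0.0367) and rho = 0.555 (permutation p = 0.081, adjusted p = 0.172), and r = 0.234 without the 2 farthest, so that relation rests on those samples. Lama3 ran the other way in batch 2, with r = -0.694 (permutation p = 0.012, adjusted p = 0.0367) and rho = -0.783 (permutation p = 0.0038, adjusted p = 0.0232), and r = -0.595 without the 2 farthest. In batch 1 it gave r = 0.485 (permutation p = 0.13, adjusted p = 0.19) and rho = 0.273 (permutation p = 0.42, adjusted p = 0.538). Lama5 did not pass in either batch, with r = 0.663 (permutation p = 0.02, adjusted p = 0.0515) and rho = 0.685 (permutation p = 0.017, adjusted p = 0.0526) for the fibroblast markers in batch 2, r = 0.686 without the 2 farthest samples, and r = 0.408 (permutation p = 0.21, adjusted p = 0.278) and rho = 0.427 (permutation p = 0.19, adjusted p = 0.291) in batch 1. These correlations pool the 3 diets of a batch.

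With the log2 sum of both marker lists as a covariate, which was chosen after seeing the data, the log2 fold changes of batch 2 between HF and LF mice were -0.36 for Lamb2 (adjusted p = 0.0923) and 0.47 for Lama3 (adjusted p = 0.0923), and neither passed. That fit called 12 genes in place of 1069. In batch 2 the summed smooth muscle markers of HF mice (0.858 to 4.68 CPM) did not overlap with those of LF mice (5.86 to 31.0 CPM), while the fibroblast markers overlapped. The covariate thus varies partly with the diet, and in this fit diet and marker level cannot be fully told apart. Over both batches Lama5 (-0.70, adjusted p = 0.0382) and Lamb2 (-0.37, adjusted p = 0.0301) still passed. From HF to HF-LF mice Lamb2 passed in batch 2 (0.47, adjusted p = 0.00102) but neither gene passed over both batches, with 0.37 (adjusted p = 0.0533) for Lamb2 and 0.46 (adjusted p = 0.167) for Lama5.

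**Figure D4:**
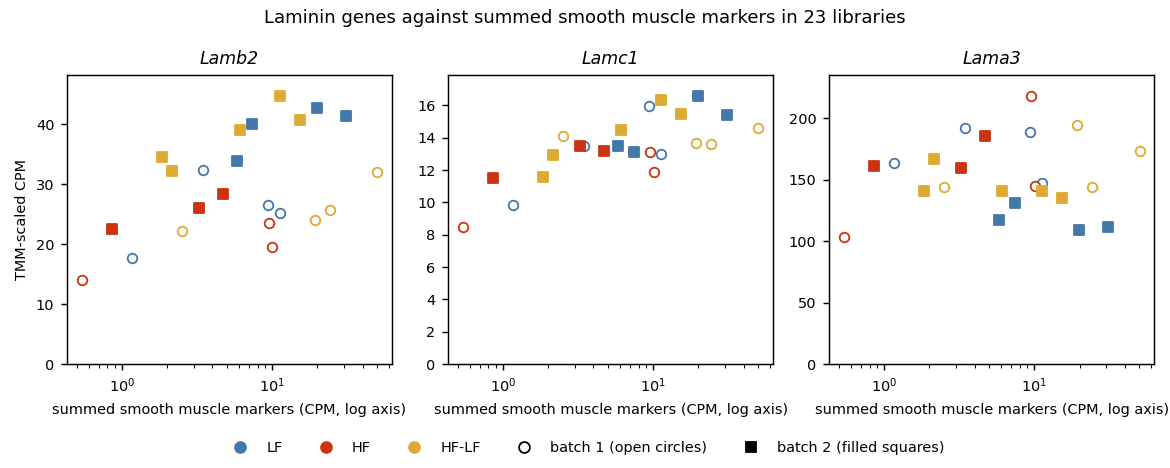
TMM-scaled CPM (y axis, from 0) of Lamb2, Lamc1 and Lama3 in 23 libraries against the summed CPM of 6 smooth muscle markers (log axis), coloured by diet, with open circles for batch 1 and filled squares for batch 2. In batch 2 Lamb2 and Lamc1 are higher where these markers are higher and Lama3 is lower, and the 3 HF samples lie at 0.858 to 4.68 CPM of markers.

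Fold changes between HF and LF mice also followed the base composition of transcripts. Of the tested genes of each batch, 95.1% had a GC value. Over these genes the median log2 fold change in batch 1 ran from 0.14 in the 20% with the lowest GC content to -0.18 in the 20% with the highest. In batch 2 it ran from 0.06 to -0.12. The longest transcripts of Itgb4 (60.0%), Lama5 (59.9%), Lamb2 (58.8%) and Itga3 (57.9%) belong to the highest 20%, which begins at 55.9% GC, while Itga6 has 48.9% and Lama3 51.7%. After a correction for GC content in each sample, also chosen after seeing the data, Lama5 stood at -0.61 (SE 0.17, adjusted p = 0.0177) and Lamb2 at -0.37 (SE 0.11, adjusted p = 0.0194) over both batches, so both remained called. Itgb4 went from -0.21 to -0.02 (SE 0.07, adjusted p = 0.806). In batch 2, Lama3 (0.54, SE 0.08, adjusted p = 0.0132) and Lamb2 (-0.51, SE 0.11, adjusted p = 0.0349) still passed. The rise of Lama5 from HF to HF-LF mice over both batches did not (0.45, SE 0.17, adjusted p = 0.0628), and that of Lamb2 did (0.42, SE 0.11, adjusted p = 0.0164). Nid2 (-0.42, adjusted p = 0.00412), Ntn4 (-0.43, adjusted p = 0.00773), Bcam (-0.31, adjusted p = 0.028) and Dst (-0.28, adjusted p = 0.0471) remained called between HF and LF mice over both batches. Hspg2, Agrn and Plec were corrected too, and their values over both batches are not given here. In batch 1, where no gene passed before the correction, they stood at 0.04 (adjusted p = 0.943), -0.18 (adjusted p = 0.425) and 0.02 (adjusted p = 0.968) after it. What makes fold changes follow GC content in these libraries was not tested.

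**Figure D5:**
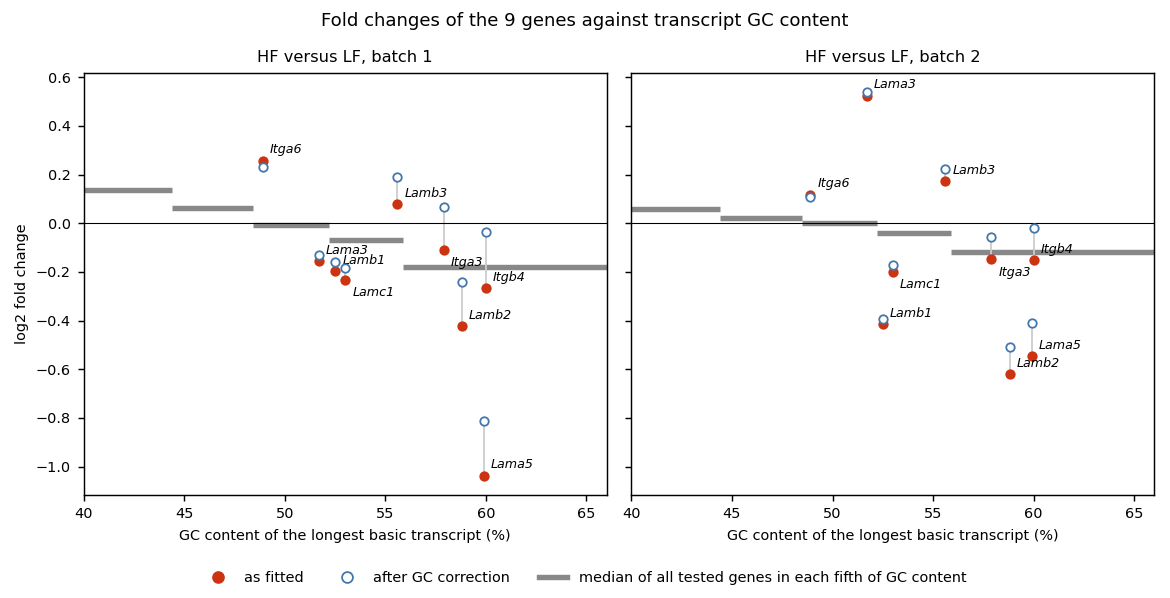
Log2 fold change between HF and LF mice (y axis) of the 9 genes against the GC content of their longest transcript (x axis), before (filled) and after (open) a correction for GC content, in batches 1 and 2. Grey bars give the median of the tested genes with a GC value in each 20% of these genes by GC content, cut off at 40% and 66%. The bars fall from 0.14 to -0.18 in batch 1 and from 0.06 to -0.12 in batch 2. The correction moves Itgb4 in batch 1 from -0.27 to -0.04.

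Across the 23 samples, after each batch was centred on its mean, some pairs of the 9 genes varied together more closely than others. Pearson's r of log2 CPM was 0.811 for Lamb2 and Lamc1, 0.793 for Itga3 and Itgb4, 0.753 for Lamb2 and Itgb4, 0.748 for Lama5 and Itgb4 and 0.745 for Lama5 and Lamb2. Itga6 and Lamb2 gave -0.525, and the partners Itga6 and Itgb4 gave -0.187. Among the chains of the alpha 5 laminins, Lamb1 gave 0.688 with Lamc1 and 0.559 with Lamb2, while Lama5 gave 0.523 with Lamc1 and 0.231 with Lamb1. The integrin Itgb4 gave 0.586 with Lamc1 and 0.194 with Lamb1. These values describe 23 samples that share diets, and no test was made of them. They were not corrected for GC content, which is 57.9% to 60% for Itga3, Lamb2, Lama5 and Itgb4, 53% for Lamc1 and 48.9% for Itga6. The part of GC content in these correlations was not tested.

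Among 9365 genes with a mean of at least 10 CPM, the pattern most like the mean of the 9 members was that of Plxnb2 (r = 0.913), followed by Diap1 (0.880), Mkl1 (0.856), Ncoa3 (0.853) and 2900026A02Rik (0.851). Taken singly, Itga3 was most like Plec (0.908). Lama5 was most like Nfe2l1 (0.896), Lamb2 like Notch1 (0.933), Lamc1 like Atp2a3 (0.909), Lamb1 like Cd97 (0.854) and Lama3 like Ankrd37 (0.803). For the subunits of integrin alpha 6 beta 4 these were Gna13 (0.937 with Itga6) and Dgkd (0.945 with Itgb4). These are the highest of many correlations and were not tested. They too were made without a correction for GC content.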

How the data were processed

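Colonic epithelium of LF, HF and HF-LF mice was measured by RNA-seq after depletion of ribosomal RNA. The deposited values are raw gene counts, which the authors made with cutadapt 1.2.1, STAR 2.5 and featureCounts 1.5.0-p1 on mm10, by the submitters' processing notes, and no strand setting is given in the sources used here. Of 24917 loci, 5109 had no count. All 9 members passed the filter of edgeR (filterByExpr).

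Counts were analysed in R 4.3.3 with edgeR 4.0.16 (TMM scaling, quasi-likelihood F test) in 1 fit of 3 diets per batch and in 1 fit of both batches with batch as a covariate, over 14428, 14377 and 14385 genes. Standard errors come from the log2 fold change and its F value. On simulated counts of batch 1 (14428 genes, HF against LF mice) the test recovered 20% of genes changed by 0.5 and 72% of genes changed by 1 on the log2 scale, and in batch 2 (14377 genes) 54% and 85%. A count of 3 corresponds to 0.0459 to 0.103 CPM, which covers counting error only. Levels per kilobase use the joined exons of GENCODE M21 basic transcripts.

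Alternatives were the size factors of DESeq2, no filter on low counts, DESeq2 1.42.0, limma 3.58.1 (voom with sample weights), each sample left out, the replicate number as a block, same-numbered samples summed over the batches and, chosen after seeing the data, a covariate of mesenchymal markers and a lowess correction for GC content. Marker sums were compared with exact permutation tests, and correlations with permutation tests, in scipy 1.17.1. Named were all members and, from each related list, at most 3 of the genes that passed in any of the 9 comparisons, ranked by their fold change between HF and LF mice over both batches, whether or not they passed there; Agrn was named beyond this rule, and markers that did not pass are named for their level or to give the rest of a list. The members and lists were chosen with earlier results of these data known. No 2 of the 23 libraries were identical. The position and promoter of Lama3 are not given here.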

Additional observations from a re-analysis of the deposited data

Results flagged for a closer look

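In 72 groups of 4 or 5 samples (the 9 genes and the summed marker lists), 4 had 1 sample far from the rest, and chance alone gives about 1 in 20. Lama3 was 167 CPM in HF-LF replicate 3 of batch 2, while the other HF-LF samples of that batch ran from 135 to 141 CPM. Without this sample Lama3 fell between HF-LF and HF mice of batch 2 (log2 fold change -0.29, edgeR adjusted p = 0.0266).

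The other flags are marker sums. Fibroblast markers summed to 27.3 CPM and crypt base and proliferation markers to 404 CPM in LF replicate 3 of batch 1. Markers of enteric neurons and glia summed to 1.03 CPM in LF replicate 4 of batch 2.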

How the results depend on the processing

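The 7 member fold changes that passed kept their call in 66 of 80 values with 1 sample left out and in 47 of 53 under other alternatives, and lost it in the rest, none changing direction. The other 74 passed in 7 of 748 and 9 of 541 values and changed direction in 54 and 34. The cause of these changes was not tested. Lamb1 had the fewest counts of the members, between 27 and 284 per sample.

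Genes that passed between HF and LF mice of batch 1 numbered 1 with the size factors of DESeq2, 2 without a filter, 512 with DESeq2, 2422 with voom, 2 with the marker covariate and 1 with the GC correction, and members 1 with DESeq2 and 3 with voom. In batch 2 these genes numbered 1845 with DESeq2, 1991 with voom, 12 with the covariate (0 members) and 581 with the GC correction. Over both batches they numbered 786 with the covariate. Between HF-LF and HF mice of batch 1 they were 2 without a filter, 17 with DESeq2, 3 with voom and 0 with the covariate. In batch 2 they were 1326 with the covariate, and voom gave 2 members among 2252 genes that passed. Over both batches they were 104 with the covariate (0 members). The GC correction left 1 member among 1347 genes that passed, and summing same-numbered samples left 1 among 1490. Between HF-LF and LF mice DESeq2 gave 6 genes in batch 1, 16 in batch 2 and 6 over both, voom 0 in batch 2 and 3 over both, the covariate 2 in batch 2, and summing 1 over both.

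The main fits did not take the replicate numbers as pairs. Same-numbered samples of a batch had correlated deviations (r over 0.1) in 8 of 20 pairs. Between HF and HF-LF samples r was 0.0973, 0.391 and 0.277 in batch 1 and 0.309, 0.396 and -0.0937 in batch 2. With the replicate block, genes between HF and LF mice were 92 in batch 1 (1 member, Lama5) and 2080 in batch 2. Between HF-LF and HF mice they were 0 in batch 1 and 2815 in batch 2 (2 members). Between HF-LF and LF mice they were 0 in batch 2 and 1 over both. The block turned Lama5 to 0.078 (batch 2) and Lamb1 to -0.057 (both) there.

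Other fold changes that turned had not passed. Voom gave 0.26 for Lamb1 and -0.089 for Lamb3 (HF against LF, batch 1), -0.062 for Lamb2 and -0.0083 for Itga3 (HF-LF against LF, batches 1 and 2), and 0.050 for Itga6 and 0.14 for Lamb1 (HF-LF against HF, batches 1 and 2). For Itga3 between HF-LF and LF mice over both, the size factors gave 0.000116 and DESeq2 0.000162, and summing gave 0.032 for Lamb2. The covariate gave, between HF-LF and LF mice, -0.27 for Lamb1, -0.17 for Lamb2, -0.023 for Lamc1 and 0.018 for Itga3 (batch 1) and 0.18 for Lama5, 0.11 for Lamb2 and 0.095 for Lamc1 (batch 2). It gave, between HF-LF and HF mice, -0.16 for Lama3, -0.25 for Lamb1 and 0.040 for Itga6 (batch 1), 0.020 for Lamb3 (batch 2) and -0.12 for Lamb1 (both), and between HF and LF mice 0.043 for Lamc1 (batch 2) and 0.17 for Lamb1 (both). The GC correction gave for Itga3 0.066 (HF against LF, batch 1), 0.0075 (both), 0.048 (HF-LF against LF, batch 1), 0.043 (both) and -0.018 (HF-LF against HF, batch 1), and 0.019 for Itgb4 (batch 1), 0.018 for Lama5 (batch 2) and 0.049 for Lamb2 (both) between HF-LF and LF mice, and -0.014 for Lamb3 (HF-LF against HF, both). Scaling by library totals gave -0.00903 and -0.00472 for endothelial markers between HF-LF and LF mice of batches 1 and 2.

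With each sample left out in turn, genes that passed between HF and LF mice ranged from 0 to 1352 (members 0 to 1) in batch 1, from 15 to 2560 (1 to 3) in batch 2 and from 1591 to 3703 over both. Between HF-LF and HF mice they ranged from 0 to 3, from 11 to 2778 (0 to 2) and from 501 to 2669 (1 to 2), and between HF-LF and LF mice from 0 to 6, 0 to 2 and 0 to 3. Fold changes that turned ranged, between HF and LF mice of batch 1, from -0.48 to 0.074 for Lama3, from -0.69 to 0.33 for Lamb1 and from -0.017 to 0.24 for Lamb3. Between HF-LF and HF mice they ranged from -0.15 to 0.40 for Lama3 and from -0.28 to 0.068 for Itga6 (batch 1), and from -0.19 to 0.32 for Lamb1 and from -0.046 to 0.034 for Lamb3 (batch 2). Between HF-LF and LF mice of batch 1 they ranged from -0.066 to 0.020 for Itga3, from -0.15 to 0.0018 for Itgb4, from -0.10 to 0.17 for Lamb2 and from -0.0053 to 0.20 for Lamc1. In batch 2 they ranged from -0.022 to 0.043 for Itga3, from -0.015 to 0.053 for Itga6, from -0.18 to 0.13 for Lama5, from -0.11 to 0.0017 for Lamb2 and from -0.10 to 0.017 for Lamc1. Over both they ranged from -0.022 to 0.013 for Itga3, from -0.011 to 0.058 for Itgb4, from -0.12 to 0.21 for Lamb1, from -0.068 to 0.042 for Lamb2 and from -0.026 to 0.066 for Lamc1.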

Other observations

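Of 43 tested markers of the epithelium and of other cells, 2 rose and 3 fell between HF and LF mice over both batches, against 9% and 9.11% of all genes. Axin2, a target of Wnt signalling in the crypt, fell in HF mice over both batches (log2 fold change -0.44, SE 0.10, edgeR adjusted p = 0.00724) and rose from HF to HF-LF mice (0.36, SE 0.10, adjusted p = 0.0227). Top2a, a topoisomerase of dividing cells, rose in HF mice over both batches (0.53, SE 0.17, adjusted p = 0.0257). The other 3 tested markers of this list did not pass, with log2 fold changes of -0.08 for Lgr5, 0.09 for Ascl2 and 0.23 for Mki67, and the median of the list was 0.09. Tff3, a trefoil peptide of goblet cells, rose in HF mice over both batches (0.42, SE 0.13, adjusted p = 0.0202). The other 3 goblet cell markers did not pass and had log2 fold changes below 0, namely -0.31 for Muc2, -0.13 for Fcgbp and -0.11 for Clca1, and the median of the list was -0.12.

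Of 4 tested endothelial markers 1 passed: Vwf, which encodes von Willebrand factor, fell in HF mice over both batches (-0.49, SE 0.11, adjusted p = 0.00628) and rose from HF to HF-LF mice (0.39, SE 0.11, adjusted p = 0.0223), while Pecam1 (-0.34), Kdr (-0.60) and Tek (-0.14) did not pass between HF and LF mice. Cdh5 averaged 0.0781 CPM and was listed at 0 in 4 samples. Of 6 fibroblast markers 1, Pdgfra, fell in HF mice over both batches (-1.20, SE 0.44, adjusted p = 0.0445), and of 6 smooth muscle markers 1, Actg2, fell in batch 2 (-3.02, SE 0.73, adjusted p = 0.035), where 4.4% of all genes fell. Of 6 markers of surface colonocytes, 0 passed in edgeR in any comparison, against 18.1% of all genes between HF and LF mice and 10.3% between HF-LF and HF mice over both batches, and 1 had an unadjusted p under 0.05 in each of these.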
